A study of Homo sapiens with 6 samples.

Results

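The interferon response and antigen presentation genes described here are 32 genes chosen by symbol among the 26195 gene symbols of the series. They cover the transcription factors that carry interferon signals, sensors of foreign nucleic acid, antiviral effectors and 3 genes of class I antigen presentation. Only promoters, not levels, were analysed here for TAP1 and TAPBP, and the other 30 of the 32 members had counts. Their messenger RNA was counted with Drop-seq, in which droplets join single cells to barcoded beads and each captured molecule gets a unique molecular identifier (UMI). The cells were PC9, an established human lung adenocarcinoma line that depends on mutant EGFR. Each of 6 conditions had 1 library.

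In 4 libraries cells spent 1 day in 2 µM erlotinib, which blocks the EGFR kinase. In these, cells also received 6.25 µM CPI-455 for 4 days, a compound that inhibits KDM5 histone demethylases, or they carried lentiviruses with KDM5A shRNA, with both KDM5A and KDM5B shRNA, or with KDM5A cDNA. Erlotinib began 4 days after transduction with KDM5A shRNA, 5 days after transduction in the library labelled KDM5A and KDM5B shRNA (below, the library labelled double shRNA), and 6 days after it with KDM5A cDNA. The remaining libraries had no erlotinib, and were cells with a scrambled shRNA lentivirus and untreated cells without virus. Cells were grown in 5% serum, and transduced cells had 10% serum after the virus. All erlotinib libraries carried a KDM5 manipulation, so that the drug cannot be told apart from the drug together with some such manipulation, and all but the CPI-455 and untreated libraries had been exposed to virus.

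Cells were kept with at least 500 UMIs, of which at most 20% were mitochondrial. This left between 131 and 374 cells in the erlotinib libraries, against 263 cells with scrambled shRNA and 1166 untreated cells. They held 590091 to 1596385 UMIs per erlotinib library, against 1294422 with scrambled shRNA and 3956647 in untreated cells. Median UMIs per cell lay between 2985.5 and 3762.5 with erlotinib, against 3343 with scrambled shRNA and 1493.5 in untreated cells. KDM5A stood at 56.4 and 41.3 CPM (UMIs scaled to the same total, 1000000, in every library) in the KDM5A shRNA library and the library labelled double shRNA, and at 164 CPM with KDM5A cDNA, against 81.9 CPM with scrambled shRNA. KDM5B stood at 138 CPM in the library labelled double shRNA and at 102 CPM with CPI-455, against 46.4 CPM with scrambled shRNA. A lower KDM5B, as the label double shRNA would give, was thus not seen. The scrambled library had no erlotinib, so this comparison cannot tell whether the shRNA lowered KDM5B. A pair of libraries, CPI-455 and the one labelled double shRNA, shared 1 cell barcode, and no other barcode was shared. Of the epithelial markers EPCAM, KRT8, KRT18, KRT19, CDH1 and EGFR, all 6 were present, at a summed 5431 to 8831 CPM with erlotinib, against 6708 CPM with scrambled shRNA and 5530 CPM in untreated cells.

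Type I and III interferons signal through receptor-bound JAK kinases to a complex that contains STAT2 and IRF9 and binds the interferon-stimulated response element (ISRE) of their target genes. Interferon gamma acts through the gamma-activated sequence (GAS), and it induces IRF1, the guanylate-binding proteins and the machinery that loads peptides onto class I molecules. NF-kB, which acts downstream of inflammatory signals, shares several of these targets, among them IRF1 and B2M.

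Promoters are shown for 4 members that were higher with erlotinib, because their matches to the searched elements differ. The sequences are RefSeq's, from GRCh38.p14, 5′ to 3′ on the gene's own strand, and cover the 250 bases before the annotated start. Capitals mark matches to the searched elements on either strand: the ISRE half-site pair (GAAA, any 2 bases, GAAA), the GAS element TTCNNNGAA and the NF-kB consensus. Other forms of these elements were not searched, so a window without a match may still hold one. The IRF1 window (chr5:132490774-132491023, minus strand) held a GAS match and an NF-kB match, and no ISRE pair. The GBP1 window (chr1:89065209-89065458, minus strand) held 1 ISRE pair, on the opposite strand. The IFIT3 window (chr10:89327747-89327996, plus strand) held 2, both on the opposite strand. The B2M window (chr15:44711267-44711516, plus strand) held 2 overlapping ISRE pairs and an NF-kB match.
IRF1: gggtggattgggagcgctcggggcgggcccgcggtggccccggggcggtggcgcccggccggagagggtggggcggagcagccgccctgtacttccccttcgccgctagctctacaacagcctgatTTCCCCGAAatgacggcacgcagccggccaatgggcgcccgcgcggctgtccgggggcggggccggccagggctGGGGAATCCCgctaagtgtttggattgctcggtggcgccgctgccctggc
GBP1: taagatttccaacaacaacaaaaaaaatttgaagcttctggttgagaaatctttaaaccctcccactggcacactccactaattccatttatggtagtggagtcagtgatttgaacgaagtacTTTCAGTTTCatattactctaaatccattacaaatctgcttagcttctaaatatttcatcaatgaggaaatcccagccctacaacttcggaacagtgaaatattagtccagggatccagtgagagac
IFIT3: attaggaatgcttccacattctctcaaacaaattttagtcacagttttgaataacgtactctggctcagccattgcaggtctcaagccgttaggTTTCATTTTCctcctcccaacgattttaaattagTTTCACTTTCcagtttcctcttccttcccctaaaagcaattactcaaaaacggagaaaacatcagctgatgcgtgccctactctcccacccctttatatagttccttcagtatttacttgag
B2M: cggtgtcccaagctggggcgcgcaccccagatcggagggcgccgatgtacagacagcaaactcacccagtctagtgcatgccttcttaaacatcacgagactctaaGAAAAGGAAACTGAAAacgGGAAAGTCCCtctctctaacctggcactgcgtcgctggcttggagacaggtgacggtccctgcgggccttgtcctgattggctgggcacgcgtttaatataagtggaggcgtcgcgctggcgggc

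Of the 32 members, 26 were matched to RefSeq promoters, DDX58 under its newer symbol RIGI. The ISRE pair occurred in 17 of these 26 windows, against 3.02% of all 35116 promoters. GAS occurred in 8 of 26 windows, against 6.57% of all promoters, and NF-kB in 10 of 26, against 9.96%. Among the 8 matched members that were higher with erlotinib, 4 had an ISRE pair, 2 had GAS and 3 had NF-kB. Among the 5 tested members that did not pass, the numbers were 3, 1 and 2 for the same elements. A match describes these letters and is neither a bound site nor a cause.

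The first comparison set the 4 erlotinib libraries against the 2 without. Of the 15 members with enough counts to be tested, 10 rose and none fell. The changes were greatest in GBP2, GBP1, IFIT2 and IRF1, while ISG15 and IFI35 did not pass the test. Over all 10445 genes tested, 10.0% were called higher and 13.5% lower by edgeR. The median log2 fold change was 1.29 over the 15 tested members and 0.01 over all genes. All 15 fitted folds were above 0, so no p cut-off in edgeR, an unadjusted 0.05 included, could call a tested member lower. The count of lower members was also 0 in limma-voom, and it was 1 in DESeq2, which tested OAS3 as well. In 12 of the 15, every erlotinib library lay above both others, which 18.6% of all genes tested did. The 15 passed a filter on low counts, which favours members that are high with erlotinib: GBP2, IFIT2, IFIT3 and IFI6 were under 10 CPM in both libraries without the drug, while OAS3, lower with erlotinib, failed it. With no filter, 8 of 30 members rose by edgeR and 1, OAS3, fell, against 4.32% and 6.85% of all genes. GBP2 and IFITM3 then did not pass. The other 15 members with counts, at 4 to 62 UMIs over all libraries, are described separately.

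**Figure D1:**
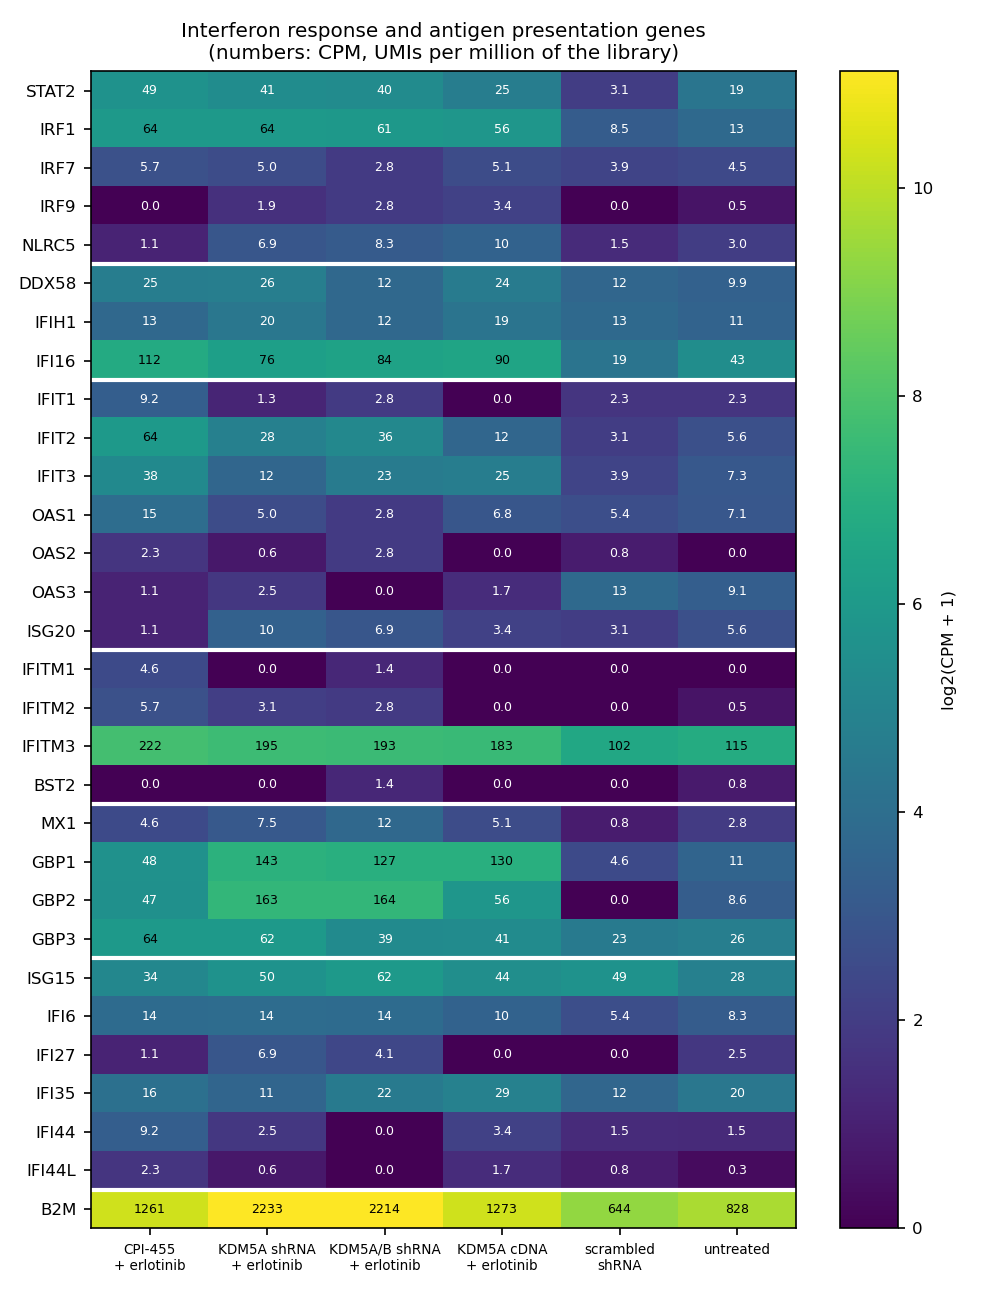
Level of each of the 30 members with counts (rows, grouped by role between white lines) in each library (columns), as numbers in CPM and as colour on a log2(CPM + 1) scale. GBP1 and GBP2 are pale in the erlotinib columns, at 46.9 to 164 CPM, and dark in the scrambled and untreated columns, while OAS3 shows the opposite order.

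Among the transcription factors, IRF1, an interferon- and NF-kB-induced activator of class I and GBP genes, was nearly level across the erlotinib libraries. It had 64.1 CPM with CPI-455, 63.9 CPM with KDM5A shRNA, 60.6 CPM in the library labelled double shRNA and 55.9 CPM with KDM5A cDNA, against 8.50 CPM with scrambled shRNA and 12.9 CPM in untreated cells. No overlap was seen, and the erlotinib libraries lay closer to each other than to either library without the drug. Its log2 fold change was 2.50 (SE 0.27), with an adjusted p of 0.000305 by edgeR.

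STAT2, the STAT protein specific to type I and III interferon signalling, had 49.2 CPM with CPI-455, 41.3 CPM with KDM5A shRNA, 40.0 CPM in the library labelled double shRNA and 25.4 CPM with KDM5A cDNA, against 3.09 CPM with scrambled shRNA and 19.0 CPM in untreated cells. The groups did not overlap, but the KDM5A cDNA library was near the untreated one. The log2 fold change was 1.71 (SE 0.51), with an adjusted p of 0.0363 by edgeR. STAT2 no longer passed without the CPI-455 library (edgeR adjusted p 0.0773), without the library labelled double shRNA (0.0851) or without the scrambled library, where the log2 fold change was 1.11 (0.0872), and without the untreated library it was 3.61.

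The remaining factors were too sparse to test. NLRC5, the transactivator of class I genes, had 1, 11, 6 and 6 UMIs with CPI-455, KDM5A shRNA, the library labelled double shRNA and KDM5A cDNA, against 2 with scrambled shRNA and 12 in untreated cells. That is 1.14 CPM with CPI-455 and 6.89 to 10.2 CPM in the 3 transduced erlotinib libraries, against 1.55 CPM with scrambled shRNA and 3.03 CPM in untreated cells. The CPI-455 and scrambled libraries were the lowest, on 1 and 2 UMIs, and cannot be ordered at this depth. IRF7, which amplifies the type I response, lay between 2.76 and 5.72 CPM with erlotinib, against 3.86 CPM with scrambled shRNA and 4.55 CPM in untreated cells. IRF9, the DNA-binding partner of STAT2, had 7 UMIs with erlotinib, against 2 without.

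Of the 3 sensors, IFI16, a nuclear DNA sensor, had 112 CPM with CPI-455, 76.4 CPM with KDM5A shRNA, 84.0 CPM in the library labelled double shRNA and 89.8 CPM with KDM5A cDNA, against 18.5 CPM with scrambled shRNA and 42.7 CPM in untreated cells. Every erlotinib library was above both others. IFI16 rose by 1.55 in log2 units (SE 0.32, edgeR adjusted p 0.00693), by 2.26 without the untreated library and by 1.13 without the scrambled library. DDX58, which encodes the RNA sensor RIG-I, had 25.2, 26.3, 12.4 and 23.7 CPM with CPI-455, KDM5A shRNA, the library labelled double shRNA and KDM5A cDNA, against 11.6 CPM with scrambled shRNA and 9.86 CPM in untreated cells. Every erlotinib library was above both others, but the library labelled double shRNA only just, and the log2 fold change of 1.11 (SE 0.39) did not pass (edgeR adjusted p 0.0605). It passed in limma-voom (adjusted p 0.0342) and over all barcodes with edgeR (adjusted p 0.0473). IFIH1, which encodes the sensor MDA5, had 12.4 to 20.05 CPM with erlotinib, against 13.1 CPM with scrambled shRNA and 10.6 CPM in untreated cells, and its groups overlapped (log2 fold change 0.51; edgeR adjusted p 0.359).

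The RNA-directed effectors split. IFIT2, which binds viral RNA and blocks its translation, had 64.1 CPM with CPI-455, 28.2 CPM with KDM5A shRNA, 35.8 CPM in the library labelled double shRNA and 11.9 CPM with KDM5A cDNA, against 3.09 CPM with scrambled shRNA and 5.56 CPM in untreated cells. The groups did not overlap, although the erlotinib libraries spread widely. The log2 fold change was 2.94 (SE 0.60), with an adjusted p of 0.00741 by edgeR. IFIT3, which stabilises IFIT1 on RNA, had 37.8 CPM with CPI-455, 11.9 CPM with KDM5A shRNA, 23.4 CPM in the library labelled double shRNA and 25.4 CPM with KDM5A cDNA, against 3.86 CPM with scrambled shRNA and 7.33 CPM in untreated cells. Here the KDM5A shRNA library was the lowest of the erlotinib libraries, whereas for IFIT2 it was the KDM5A cDNA library. IFIT3 rose by 2.03 in log2 units (SE 0.50; edgeR adjusted p 0.0166), and it no longer passed without the scrambled library (log2 fold change 1.75; edgeR adjusted p 0.0736).

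OAS3, an oligoadenylate synthetase that activates RNase L on double-stranded RNA, went the other way. It had 1, 4, 0 and 1 UMIs with CPI-455, KDM5A shRNA, the library labelled double shRNA and KDM5A cDNA, against 17 UMIs with scrambled shRNA and 36 UMIs in untreated cells. Every erlotinib library was below both others, which 26.7% of all genes tested were. Its pooled level with erlotinib was 0.157 times that without (95% counting interval 0.0552 to 0.365), and it failed the filter on low counts of the edgeR fit. DESeq2, which tested it, gave a log2 fold change of -2.88 (SE 1.01, adjusted p 0.0288). Its relative OAS1 had 2.76 to 14.9 CPM with erlotinib, against 5.41 CPM with scrambled shRNA and 7.08 CPM in untreated cells, with CPI-455 highest. The pooled ratio of OAS1 was 1.07 (0.623 to 1.82).

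The nuclease ISG20 ranged from 1.14 CPM with CPI-455 to 10.0 CPM with KDM5A shRNA, and had 3.09 CPM with scrambled shRNA and 5.56 CPM in untreated cells. IFIT1 had 12 UMIs with erlotinib and 12 without, and OAS2 had 5 with and 1 without. None of these 3 separated erlotinib libraries from the others.

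Among the membrane restriction factors, IFITM3, which blocks the fusion of enveloped viruses in endosomes, had 222 CPM with CPI-455, 195 CPM with KDM5A shRNA, 193 CPM in the library labelled double shRNA and 183 CPM with KDM5A cDNA, against 102 CPM with scrambled shRNA and 115 CPM in untreated cells. The 2 groups were tight and did not overlap. IFITM3 rose by 0.91 in log2 units (SE 0.19; edgeR adjusted p 0.00853), and without the scrambled library it no longer passed (log2 fold change 0.85; edgeR adjusted p 0.0515). Its close paralogs IFITM1 and IFITM2 had 5 and 12 UMIs with erlotinib, against 0 and 2 without, and reads that fit several of the 3 could have been divided among them. BST2, which tethers budding virions, had 1 UMI with erlotinib and 3 without.

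The guanylate-binding proteins, GTPases that coat intracellular pathogens, included the 2 highest folds, those of GBP2 and GBP1, while GBP3 was lower. GBP1 had 48.1 CPM with CPI-455, 143 CPM with KDM5A shRNA, 127 CPM in the library labelled double shRNA and 130.5 CPM with KDM5A cDNA, against 4.64 CPM with scrambled shRNA and 11.1 CPM in untreated cells. The 3 transduced erlotinib libraries were alike, and CPI-455 lay below them and above both libraries without the drug. GBP1 rose by 3.74 in log2 units (SE 0.53, edgeR adjusted p 0.00144), by 4.55 without the untreated library and by 3.39 without the scrambled library.

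GBP2 had a different order, with 46.9 CPM with CPI-455, 163 CPM with KDM5A shRNA, 164 CPM in the library labelled double shRNA and 55.9 CPM with KDM5A cDNA, against 0 CPM with scrambled shRNA and 8.59 CPM in untreated cells. The shRNA libraries were high, and CPI-455 and KDM5A cDNA were intermediate. A count of 0 in the scrambled library allows up to 2.32 CPM. GBP2 rose by 4.33 in log2 units (SE 0.93; edgeR adjusted p 0.0157), and it no longer passed without the scrambled library (log2 fold change 3.72; edgeR adjusted p 0.0686) or in limma-voom (adjusted p 0.0965). Without the untreated library its fit was against 0 counts and gives no usable fold.

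GBP3, a paralog of GBP1 whose reads may in part be divided with it, had 64.1, 62.0, 38.6 and 40.7 CPM with CPI-455, KDM5A shRNA, the library labelled double shRNA and KDM5A cDNA, against 23.2 CPM with scrambled shRNA and 26.3 CPM in untreated cells. The groups did not overlap, and the difference was smaller than for GBP1 and GBP2. Its log2 fold change was 1.11 (SE 0.29; edgeR adjusted p 0.0210). It did not pass without the scrambled library (edgeR adjusted p 0.0904) or without the untreated library (0.0900). MX1, a GTPase that traps viral nucleocapsids, was untested at 28 UMIs with erlotinib and 12 without. Its 4.58 to 12.4 CPM with erlotinib lay above 0.773 CPM with scrambled shRNA and 2.78 CPM in untreated cells in every library.

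**Figure D2:**
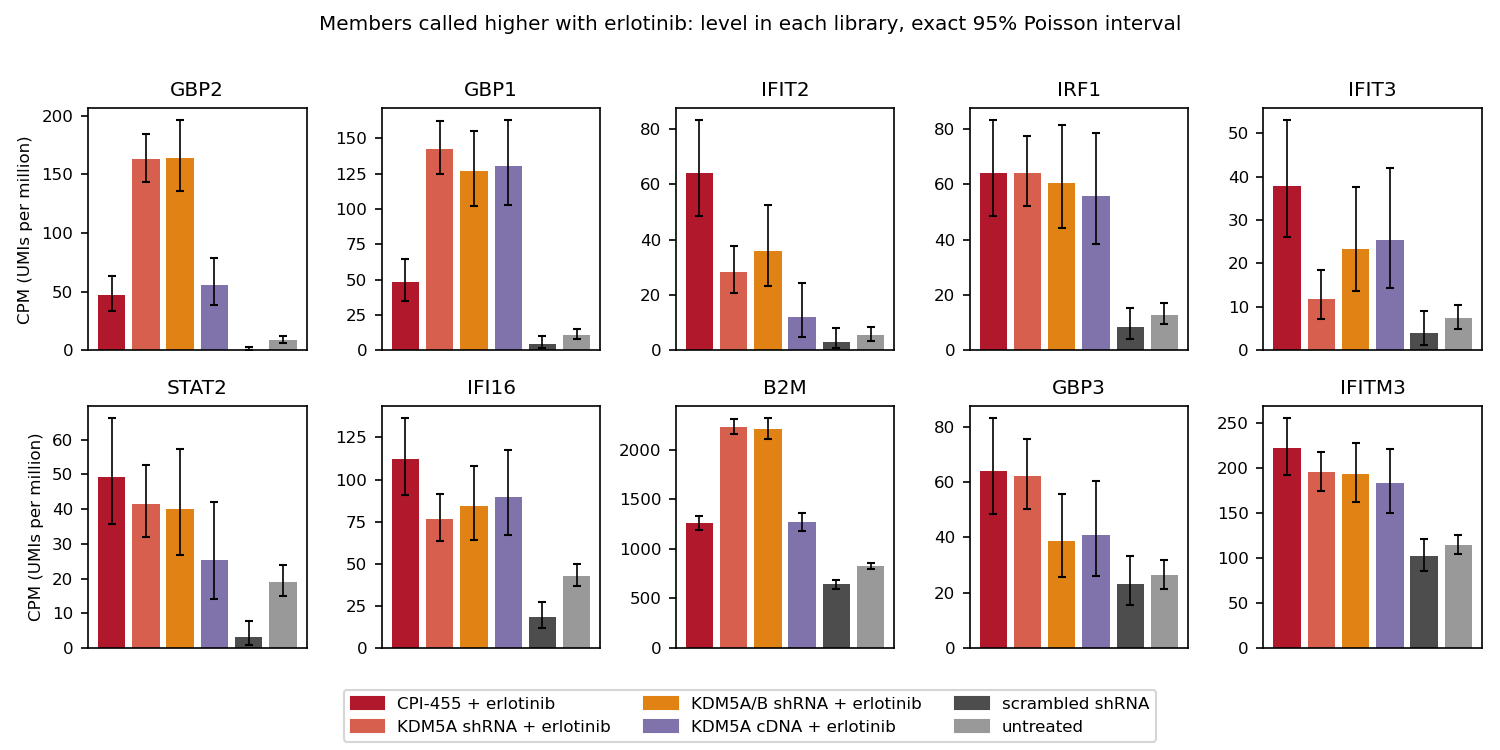
Level (CPM, separate linear axis for each gene) of the 10 members called higher with erlotinib, 1 bar per library with the exact 95% Poisson interval, which covers counting error only. IRF1 stands at 55.9 to 64.1 CPM in all 4 erlotinib libraries, whereas GBP1 is lower with CPI-455, at 48.1 CPM, than in the 3 transduced erlotinib libraries.

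None of the 3 tested members among the other interferon-induced proteins passed. ISG15, a ubiquitin-like modifier and a widely used readout of type I interferon, had 34.3 CPM with CPI-455, 50.1 CPM with KDM5A shRNA, 62.0 CPM in the library labelled double shRNA and 44.1 CPM with KDM5A cDNA, against 49.4 CPM with scrambled shRNA and 28.1 CPM in untreated cells. The groups overlapped, since the scrambled library exceeded 2 of the erlotinib libraries (log2 fold change 0.37, SE 0.33; edgeR adjusted p 0.434). IFI6, a mitochondrial and endoplasmic reticulum protein that inhibits apoptosis, had 13.7, 14.4, 13.8 and 10.2 CPM with CPI-455, KDM5A shRNA, the library labelled double shRNA and KDM5A cDNA, against 5.41 CPM with scrambled shRNA and 8.34 CPM in untreated cells. Its groups did not overlap, but it did not pass (log2 fold change 0.93; edgeR adjusted p 0.132).

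IFI35, which binds leucine zipper partners in the cytoplasm, had 11.3 to 28.8 CPM with erlotinib, against 11.6 CPM with scrambled shRNA and 20.2 CPM in untreated cells (log2 fold change 0.23; edgeR adjusted p 0.727). Its fold was slightly below 0 in 3 of the alternatives, namely limma-voom, without KDM5A cDNA and without scrambled shRNA. IFI27, IFI44 and IFI44L were sparse, with 15, 14 and 4 UMIs with erlotinib and 10, 8 and 2 without.

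B2M, the invariant light chain of class I molecules, was by far the most abundant member. It had 1261 CPM with CPI-455, 2233 CPM with KDM5A shRNA, 2214 CPM in the library labelled double shRNA and 1273 CPM with KDM5A cDNA, against 644 CPM with scrambled shRNA and 828 CPM in untreated cells. The groups did not overlap, and the shRNA libraries stood above the CPI-455 and KDM5A cDNA libraries, the order also seen for GBP2. B2M rose by 1.29 in log2 units (SE 0.30; edgeR adjusted p 0.0134), and it did not pass without the scrambled library (log2 fold change 1.14; edgeR adjusted p 0.0945).

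**Figure D3:**
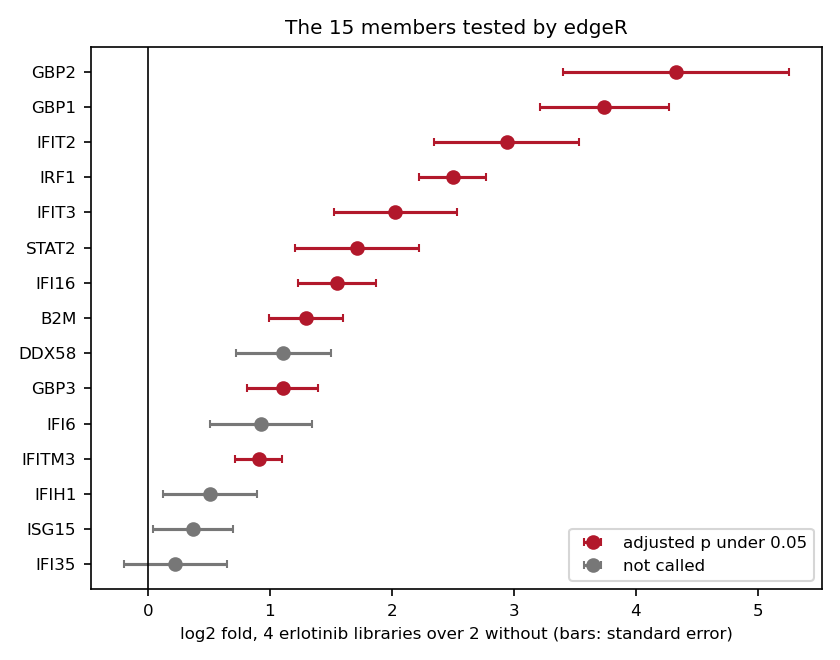
Log2 fold change, 4 erlotinib libraries over 2 without, of each of the 15 tested members, with bars of 1 standard error. The 10 members called higher by edgeR (red) run from IFITM3 at 0.91 to GBP2 at 4.33, and the 5 that did not pass (grey) include DDX58 at 1.11 with an adjusted p of 0.0605.

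A further 95 genes of the same pathways were listed by role. Of these, 66 had counts and 47 were tested. By edgeR 15 rose and 2 fell, while 10.0% of all genes tested were called higher and 13.5% lower. The median log2 fold change was 0.63 over the 47 and 0.01 over all genes. Among interferons, 2 of 12 had counts and none was tested, with at most 10 UMIs in any library. Among receptors and kinases 4 of 7 rose: IFNAR1 by 0.69, IFNAR2 by 1.38, IFNGR1 by 1.52 and the kinase JAK1 by 1.29 on the log2 scale (edgeR adjusted p 0.0117 to 0.0432). Without the untreated library none of the 4 passed (edgeR adjusted p 0.0636 to 0.132). IFNAR2 also did not pass without the scrambled library or the library labelled double shRNA (edgeR adjusted p 0.134 and 0.0662), and IFNAR1 passed only in the fit without CPI-455 among those that left out 1 library. JAK1 had 219 to 440 CPM with erlotinib, against 143 CPM with scrambled shRNA and 128 CPM in untreated cells.

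Among 7 genes of induction by nucleic acids, TLR3, an endosomal sensor of double-stranded RNA, rose by 1.40 on the log2 scale (edgeR adjusted p 0.0316), but leaving out any library other than CPI-455 ended the call (edgeR adjusted p 0.0527 to 0.134). MB21D1, which encodes the DNA sensor cGAS, fell by 1.71 (edgeR adjusted p 0.00398), with 12.4 to 32.6 CPM with erlotinib, against 84.2 CPM with scrambled shRNA and 79.6 CPM in untreated cells. Its groups did not overlap, and its direction was opposite to that of IFI16. Of 3 negative regulators tested, IRF2, which antagonises IRF1 at shared elements, rose by 1.04 (edgeR adjusted p 0.0119), and did not pass without the scrambled or the untreated library (edgeR adjusted p 0.0592 and 0.0688). Of 20 other interferon-stimulated genes tested, 6 rose (PARP14, XAF1, UBE2L6, PARP9, PML and DDX60L, by 0.82 to 1.72 on the log2 scale) and LAP3, an aminopeptidase, fell by 0.78 (edgeR adjusted p 0.0312). Of these, PARP14 and UBE2L6 passed whichever library was left out. PARP9 did not pass without the untreated library (edgeR adjusted p 0.0977), XAF1 and PML did not without the scrambled library (0.0991 and 0.0704) or the library labelled double shRNA (0.0679 and 0.0628), XAF1 also not without CPI-455 (0.0521) and PML not without the untreated library (0.142). LAP3 passed only without KDM5A shRNA, and DDX60L only without CPI-455.

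Among the 8 tested genes of class I loading and peptide supply, TAPBPL, a peptide editor related to tapasin, rose by 1.69 (edgeR adjusted p 0.00432), with 29.8 to 40.7 CPM with erlotinib, against 10.8 CPM with scrambled shRNA and 11.1 CPM in untreated cells. The other 7, including the chaperones CALR and CANX, did not pass. Of the class II list, both tested members rose: CTSS, a lysosomal protease that trims the invariant chain, by 3.78 (edgeR adjusted p 0.00270) and CD74, the invariant chain itself, by 2.51 (edgeR adjusted p 0.00516). CD74 had 13.6 to 38.9 CPM with erlotinib, against 3.09 CPM with scrambled shRNA and 7.58 CPM in untreated cells. CD74 was also on a list of 7 immune cell markers, of which 3 had counts, at a summed 15.3 to 40.1 CPM with erlotinib, against 3.09 CPM with scrambled shRNA and 8.34 CPM in untreated cells. The other 2 with counts, CD14 and LYZ, together gave at most 3 UMIs per library, and the defining markers PTPRC, CD3E, MS4A1 and TYROBP had no counts.

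The NF-kB targets NFKBIA and ICAM1, set beside IRF1 as readouts, rose by 2.70 and 3.47 on the log2 scale (edgeR adjusted p 0.00418 and 0.00480). NFKBIA had 96.1 CPM with CPI-455 and 188 to 317 CPM in the 3 transduced erlotinib libraries, against 29.4 CPM with scrambled shRNA and 38.2 CPM in untreated cells. Like GBP1, GBP2 and B2M, it was lowest with CPI-455 among the erlotinib libraries. The other called members, STAT2, IFI16, IFIT2, IFIT3, IFITM3, GBP3 and the nearly level IRF1, were highest with CPI-455. Whether NF-kB had a part in the members' levels was not tested. The mitochondrial share of UMIs also differed between the groups, at 7.04% to 9.18% with erlotinib, against 5.03% with scrambled shRNA and 3.98% in untreated cells. Its part in the results was not tested.

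The libraries were then compared in pairs. With 1 library on each side there was no replicate check and no test, and a member counts as higher or lower when its CPM differed at least 2-fold, among genes with at least 20 UMIs over both libraries. Intervals are exact 95% intervals for a ratio of 2 Poisson counts and cover counting error only.

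Several members were lower in the scrambled library than in untreated cells. These libraries differ in serum as well as in virus, and virus and serum cannot be told apart here. Against untreated cells, 0 of 19 members were at least 2-fold higher and 4 were lower with scrambled shRNA, namely STAT2, IFI16, GBP1 and GBP2. Of all genes, 4.99% were higher and 9.42% lower. The median log2 ratio was -0.55 over the members and -0.07 over all genes. STAT2 had a log2 ratio of -2.62 (interval -4.53 to -1.20), with 4 UMIs in the scrambled library and 75 in untreated cells. IFI16 had -1.20 (-1.89 to -0.58) and GBP1 -1.26 (-2.78 to -0.03). ISG15 had a ratio of 0.82 (0.35 to 1.27), above 0, and B2M of -0.36 (-0.48 to -0.25). The scrambled library was the lowest of all 6 for each of the 10 members called with erlotinib. Every erlotinib library lay above both others for these 10, which the call favours, so only the scrambled or untreated library could be lowest. The share of all called genes with this order is not given here.

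Each erlotinib library was next set against the library without the drug that shared its exposure to virus. For CPI-455 against untreated cells, both without virus, 10 of 19 members were at least 2-fold higher and 2 lower, against 14.8% and 16.4% of all genes. The median log2 ratio was 1.10 over the members and -0.07 over all genes. IFIT2 had the greatest ratio, 3.53 (2.79 to 4.31), and GBP2, IFIT3, IRF1 and GBP1 had 2.45, 2.37, 2.31 and 2.11. The lower members were OAS3 at -2.99 (-8.33 to -0.42) and ISG20 at -2.28 (-7.65 to 0.35), which had 1 UMI each with CPI-455.

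For KDM5A shRNA against scrambled shRNA, 12 of 17 members were higher and 1 (OAS3) lower, against 13.5% and 17.0% of all genes, with a median log2 ratio of 1.52 over the members and -0.08 over all genes. In the library labelled double shRNA against scrambled shRNA, 8 of 14 members were higher and 0 lower, against 14.9% and 18.9% of all genes, with medians of 1.97 and -0.05. For KDM5A cDNA against scrambled shRNA, 7 of 12 members were higher and 0 lower, against 14.2% and 17.3% of all genes, with medians of 1.17 and -0.09. These 3 comparisons share the scrambled library, so its low levels enter each of them. The minimum of 20 UMIs also favours members that are high with erlotinib. GBP2 passed it with 119 UMIs in the library labelled double shRNA and 0 with scrambled shRNA. OAS3 failed it in that library (0 UMIs against 17) and with KDM5A cDNA (1 against 17), so the counts of 0 lower leave OAS3 out.

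GBP1 had log2 ratios of 4.95 (3.80 to 6.41) with KDM5A shRNA, 4.77 (3.60 to 6.26) in the library labelled double shRNA and 4.82 (3.63 to 6.31) with KDM5A cDNA over scrambled shRNA. The 3 ratios lay well within each other's intervals. GBP2, with no UMI in the scrambled library, was at least 70.3-fold higher with KDM5A shRNA, at least 70.7-fold higher in the library labelled double shRNA and at least 24.1-fold higher with KDM5A cDNA, each against 3 counts. The intervals, which also cover counting error in the erlotinib library, began at 56.7-fold, 56.6-fold and 18.5-fold in the same libraries. B2M had 1.80 (1.69 to 1.91), 1.78 (1.66 to 1.91) and 0.98 (0.84 to 1.13) in the same libraries.

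Pairs of erlotinib libraries were compared last. For KDM5A shRNA against KDM5A cDNA, which by label lower and raise the same demethylase, 2 of 15 members were higher and 2 lower, against 6.85% and 10.5% of all genes, with a median log2 ratio of 0.17 over the members and 0.03 over all genes. GBP2 and IFIT2 were higher with KDM5A shRNA, at 1.54 (1.02 to 2.11) and 1.25 (0.09 to 2.64). IFI35 and IFIT3 were lower, at -1.35 (-2.39 to -0.31) and -1.09 (-2.15 to -0.01). B2M was under 2-fold higher with KDM5A shRNA, at 0.81 (0.70 to 0.93), and GBP1 had 0.13 (-0.25 to 0.52) and IRF1 0.19 (-0.39 to 0.80).

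For the library labelled double shRNA against KDM5A shRNA, 0 of 17 members were higher and 1, DDX58, lower at -1.09 (-2.31 to -0.03), against 5.97% and 3.05% of all genes. The median log2 ratio was -0.01 over the members and 0.00 over all genes. The intervals were narrow for B2M (-0.10 to 0.07) and GBP2 (-0.32 to 0.33), and wide for most others.

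For CPI-455 against KDM5A shRNA, 3 of 16 members were higher and 2 lower, against 11.4% and 5.62% of all genes, with a median log2 ratio of 0.03 over the members and 0.07 over all genes. GBP1 and GBP2 were lower with CPI-455, at -1.57 (-2.08 to -1.09) and -1.80 (-2.31 to -1.32), and B2M had -0.82 (-0.92 to -0.73). IFIT3, OAS1 and IFIT2 were higher with CPI-455, at 1.67 (0.81 to 2.56), 1.57 (0.19 to 3.05) and 1.19 (0.59 to 1.78). GBP3 had 0.05 (-0.45 to 0.53), IRF1 0.00 (-0.49 to 0.49) and STAT2 0.25 (-0.34 to 0.83). These libraries also differ in virus and serum, and the inhibitor cannot be told apart from them.

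**Figure D4:**
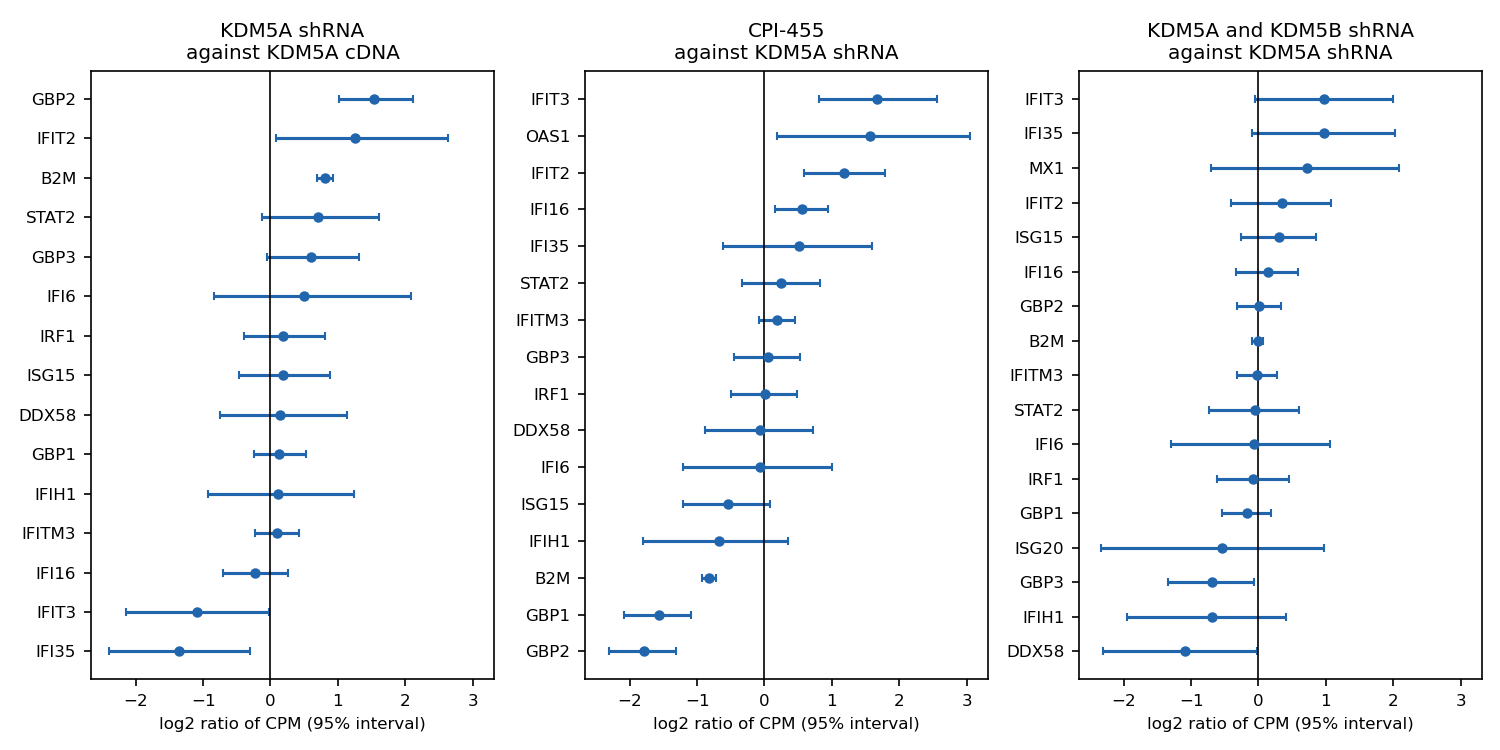
Log2 ratio of CPM with its 95% counting interval for each member with at least 20 UMIs over both libraries, in 3 pairs of erlotinib libraries (first named over second). GBP1 and GBP2 lie left of 0 and IFIT2, IFIT3 and OAS1 right of 0 with CPI-455 against KDM5A shRNA, while most intervals in the right panel include 0.

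How the members' UMIs spread over cells was described after thinning each cell to 1000 UMIs, so that depth did not set the shares. Thinning left 105 to 332 cells per erlotinib library, against 222 with scrambled shRNA and 822 untreated, after leaving out 26 to 42 shallower cells per erlotinib library, 41 with scrambled shRNA and 344 untreated. Of the thinned cells, 50.6% with CPI-455, 61.7% with KDM5A shRNA, 60.5% in the library labelled double shRNA and 49.5% with KDM5A cDNA had a UMI of any member other than B2M, against 24.8% with scrambled shRNA and 28.1% of untreated cells. Every erlotinib library was above both others. The mean was 0.80 to 1.02 UMIs per thinned cell, against 0.27 with scrambled shRNA and 0.34 in untreated cells.

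B2M was seen in 67.7% (Clopper-Pearson interval 59.9% to 74.8%) of thinned cells with CPI-455, 83.7% (79.3% to 87.5%) with KDM5A shRNA, 87.1% (79.9% to 92.4%) in the library labelled double shRNA and 71.4% (61.8% to 79.8%) with KDM5A cDNA, against 48.2% (41.5% to 55.0%) with scrambled shRNA and 53.0% (49.6% to 56.5%) of untreated cells. Before thinning, the share was 88.6% to 96.1% with erlotinib, against 79.5% with scrambled shRNA and 70.8% of untreated cells, which are shallower. GBP1 was seen in 3.05% of thinned cells with CPI-455 and in 11.4% to 14.3% in the 3 transduced erlotinib libraries, against 0 of 222 cells with scrambled shRNA (upper limit 1.65%) and 0.487% of untreated cells. IRF1 was seen in 5.71% to 7.93% of thinned cells with erlotinib, against 0.901% with scrambled shRNA and 1.46% of untreated cells. All libraries are of a single line, so no cell type that lacks these genes was there to give the share that free RNA contributes.

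The variance of member UMIs per thinned cell, B2M left out, was 1.91 times the mean with CPI-455, 1.10 times with KDM5A shRNA and in the library labelled double shRNA, and 1.36 times with KDM5A cDNA, against 0.926 times with scrambled shRNA and 1.04 times in untreated cells. A value of 1 is that of Poisson counts, scattered at random over cells with the same mean. For IFIT1, IFIT2 and IFIT3 together it was 3.06 with CPI-455 and between 0.911 and 1.17 in the other erlotinib libraries, against 0.995 with scrambled shRNA and 0.979 in untreated cells. Both CPI-455 values rested on 1 cell, and without it they were 1.06 for the members and 1.17 for the IFIT genes.

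This CPI-455 cell, picked out after its values were seen, held 29 of that library's 97 IFIT UMIs. It had 6196 UMIs in all, of which 65, or 1.05%, were of members other than B2M. The next highest CPI-455 cell with at least 1000 UMIs had 0.248%, and the median CPI-455 cell 0.0741%. In it were 18 of the library's 56 IFIT2 UMIs, 11 of 33 IFIT3 UMIs, 5 of 8 IFI44 UMIs, 6 of 22 DDX58 UMIs and 4 of 11 IFIH1 UMIs. Outside the members it held 9 of the library's 10 UMIs of OASL, 7 of 16 of DDX60 and 5 of 8 of HERC5, all interferon-stimulated.

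Without this cell, IFIT2 stood at 43.8 CPM and IFIT3 at 25.4 CPM with CPI-455. IFIT2 and IFIT3 both still passed in the erlotinib comparison by edgeR, with adjusted p of 0.00451 and 0.0176. Against KDM5A shRNA, the log2 ratio of CPI-455 was then 0.64 (-0.03 to 1.29) for IFIT2 and 1.09 (0.14 to 2.06) for IFIT3, so that IFIT2 was no longer at least 2-fold higher. IFIH1 had -1.31 (-2.74 to -0.11) and was then over 2-fold lower with CPI-455, so that 2 members were higher and 3 lower. Against untreated cells DDX58 had 0.90 (-0.03 to 1.78), and 9 members were higher in place of 10.

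**Figure D5:**
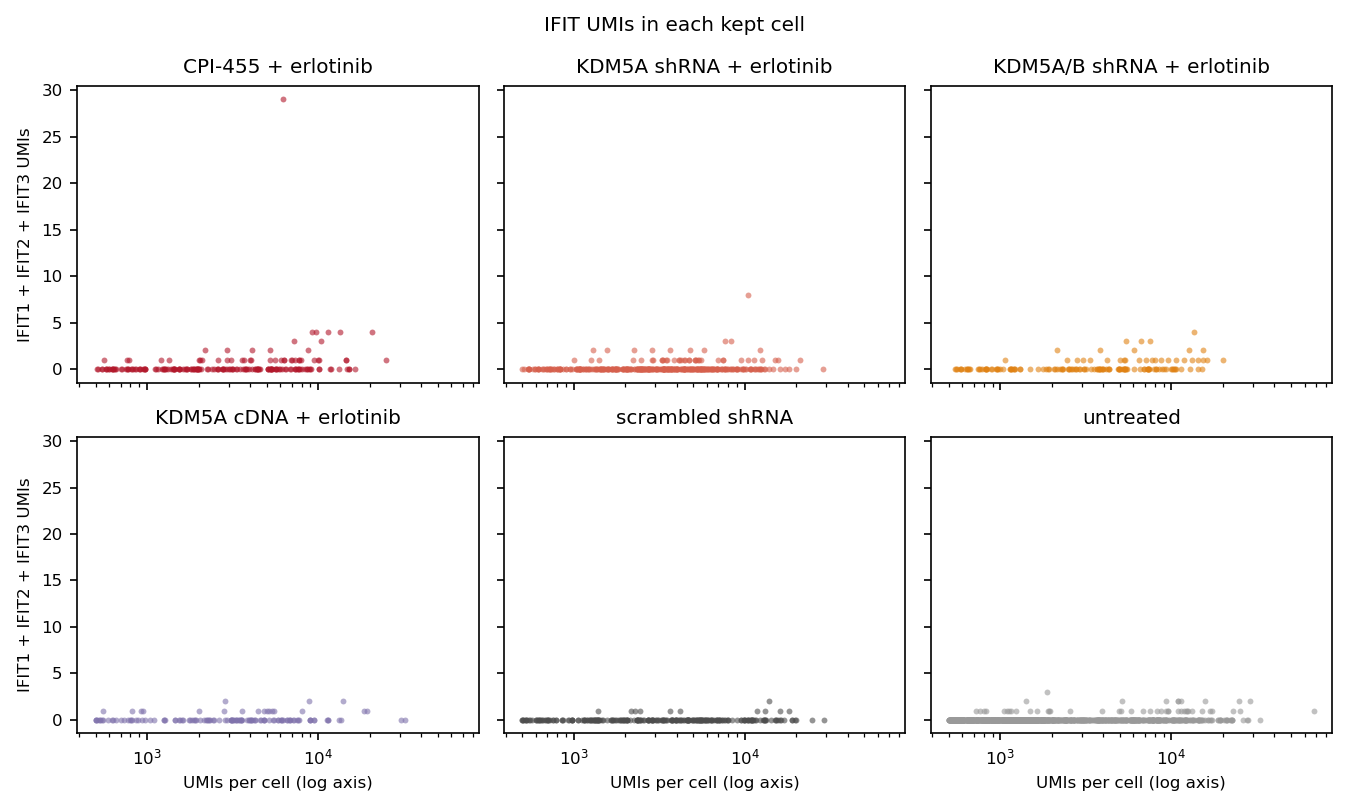
UMIs of IFIT1, IFIT2 and IFIT3 together (vertical axis) against all UMIs (horizontal log axis) of each kept cell, 1 panel per library. The single CPI-455 cell stands at 29 IFIT UMIs, and no other cell in any library exceeds 8.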

How the data were processed

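Drop-seq libraries of PC9 cells were analysed, 1 per condition. The authors deposited counts: whole UMIs per gene symbol and cell barcode, not normalized, as the values show. STAR, FastQC and the builds GRCh37.p13 and hg19 are named per the submitters' processing notes, and versions, settings and the choice of barcodes are not given in the sources used here. The labels place erlotinib with CPI-455 both on the day after seeding and at 1 day of treatment, so its timing within the 4 days is unclear.

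From these counts, barcodes of 500 UMIs or more were kept as cells unless over 20% of these were mitochondrial, and their UMIs were summed per library. No doublet caller was run on this single line. Depth limits precision: 3 counts, the floor used in place of a count of 0, equal 0.758 to 5.08 CPM. Intervals and limits cover counting error only.

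Erlotinib was tested with edgeR 4.0.16 (TMM, filterByExpr, robust quasi-likelihood, Benjamini-Hochberg adjusted p under 0.05 over 10445 genes; common biological coefficient of variation 0.262), 4 libraries against 2. The 4 carry different KDM5 manipulations, which enter the spread, and an exact permutation test over these libraries cannot go below 0.0667. DESeq2 1.42.0 and limma 3.58.1 were alternatives, beside other scalings, filters, cell cut-offs, thinning and leaving out each library. Pairs of libraries had no test; 0.5 was added to each count for the 2-fold limit. Promoter elements were searched as letters on both strands.

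All 32 members are accounted for. Given in full are members called with erlotinib and, by role, up to 4 members with the most UMIs; of other pathway genes, counts, called members and some abundant ones; and KDM5A, KDM5B, NFKBIA and ICAM1. A few genes of the pathway lists are not reported here. Members and lists were chosen with earlier results of these data known.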

Additional observations from a re-analysis of the deposited data

Results flagged for a closer look

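Among the 15 tested members, a sample far from the other erlotinib libraries by Dixon's test at the 95% level was found for 2. For GBP1, the CPI-455 library, at 48.1 CPM, lay below the other 3 (gap over range 0.830). For IFI6, the KDM5A cDNA library, at 10.2 CPM, lay below the other 3 (gap over range 0.841). Chance flags about 1 in 20 such groups, and the 4 libraries carry different KDM5 manipulations.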

How the results depend on the processing

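Members tested numbered 15 in the main fit, 8 after thinning and 15 to 18 with 1 library left out. Over all genes, 1046 of 10445 were called higher in the main fit and 790 of 10690 without CPI-455. Called genes numbered 520 of 10756 without the library labelled double shRNA and 915 of 10715 without KDM5A cDNA. Counts over all genes for the remaining fits with 1 library left out, and after thinning, are not given here. The number of members called higher with erlotinib was 10 of 15. It was 6 after thinning to 1000 UMIs per cell, where fewer members were tested, and leaving out 1 library gave 4 to 10, lowest without scrambled shRNA. The number lower was 0, and it was 1 (OAS3) with no filter, in DESeq2, over all barcodes and without KDM5A cDNA, so that leaving out 1 library gave 0 to 1. ISG15 reversed without the untreated library (log2 fold change -0.0674, and -0.0674 to 0.82 over the libraries left out). IFI35 reversed in limma-voom (-0.0107), without KDM5A cDNA (-0.0029) and without scrambled shRNA (-0.0654), with -0.0654 to 0.66 over the libraries left out. IRF1, IFI16, IFIT2 and GBP1 passed under every alternative in which they were tested. Of other alternatives, IFITM3, GBP3 and IFIT3 did not pass over transduced libraries alone, IFITM3 and GBP2 with no filter, and GBP3 after thinning. Except as given here and in the report, the cause of a change was not tested.

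Counts from pairs of libraries followed the UMI minimum, which also changed how many members were eligible. The number after "of" is the eligible members. Shares over all genes at these settings are not given here, so a change in members was not set against 1 over all genes. With 1 UMI over both libraries as the minimum, members at least 2-fold higher and lower numbered 2 and 7 of 29 for scrambled shRNA against untreated. For CPI-455 against untreated, 16 of 30 were higher. Higher and lower members numbered 18 and 2 of 30 in the library labelled double shRNA and 14 and 2 of 26 for KDM5A cDNA, both against scrambled shRNA. For KDM5A shRNA against KDM5A cDNA 5 of 28 were higher. Higher and lower were 8 and 6 of 29 for CPI-455 against KDM5A shRNA, and 4 and 3 of 30 for double against KDM5A shRNA. With 50 UMIs as the minimum, 0 of 14 were lower for CPI-455 against untreated. None was lower of 10 for KDM5A shRNA against scrambled shRNA or of 11 for KDM5A shRNA against KDM5A cDNA. Then 5 of 8 (double) and 2 of 6 (KDM5A cDNA) were higher than scrambled shRNA. After thinning, which leaves fewer UMIs, 1 was higher and 1 lower of 5 for scrambled shRNA against untreated. Higher and lower were 3 and 0 of 7 for CPI-455 against untreated, and 6 and 0 of 8 for KDM5A shRNA against scrambled shRNA. After thinning only 3 (double) and 2 (KDM5A cDNA) members were eligible against scrambled shRNA, of which 2 and 0 were higher. For KDM5A shRNA against KDM5A cDNA, 1 and 0 of 8 were higher and lower. For CPI-455 against KDM5A shRNA 0 of 9 were higher, and for double against KDM5A shRNA 0 of 8 were lower. Over all barcodes, 1 of 15 was lower for KDM5A shRNA against KDM5A cDNA. No paired analysis was possible because each condition has 1 library.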
